A study of Mus musculus with 9 samples.

Results

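The 10 chemokine genes known from fibroblasts considered here were measured in mouse embryonic fibroblasts (MEFs) under hyperosmotic stress: Cxcl1, Cxcl2, Cxcl5, Cxcl10, Cxcl12, Cx3cl1, Ccl2, Ccl5, Ccl7 and Ccl8. They were taken by gene name from the deposited RNA-seq table, in which they are 10 of 35275 genes. The cells were MEFs of the C57Bl/6 strain, described by the study as wild type and grown in serum-containing medium. They were kept iso-osmolar at 300 mOsm with no sucrose, or given low-intensity stress at 500 mOsm with 200 mM sucrose or high-intensity stress at 600 mOsm with 300 mM sucrose, for 3 h. Each group had 3 libraries, and since nothing states that these were separate cultures, the p-values measure only the spread between these libraries, which may be technical.

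Chemokines are small secreted proteins that guide leukocytes through G protein-coupled receptors, and they are named by the spacing of their first cysteines (CC, CXC, CX3C). Fibroblasts secrete Cxcl12 without stimulation, as a homing signal for haematopoietic cells, and transcribe most of the others when inflammatory signals reach NF-kB, AP-1 or interferon-responsive factors. Their mRNAs are often short-lived, since AU-rich sequences in them are bound by decay factors such as Zfp36.

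The 9 libraries held 21716042 to 26740832 counts. Of the fibroblast markers, 8 of 10 were above 1 FPKM in at least 1 library, whereas Dcn, with at most 3 counts in any library, and Lum, with at most 1, were practically absent. In the test described below, Col3a1 and Pdgfra were lower at both intensities (log2 changes -1.27 and -0.65, and -0.70 and -0.68). Pdgfrb was higher at both (0.17 and 0.29), and Col1a1 and Col1a2 were higher at 600 mOsm (0.33 and 0.26). Thy1, Vim and Fn1 did not pass at either. Genes with at least 1 count numbered 16452 to 16871 in iso-osmolar libraries, 18920 to 19222 at 500 mOsm and 17846 to 18031 at 600 mOsm. As the RNA came from bulk cultures, fewer cells of a type and less RNA per cell cannot be told apart.

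Gene clusters on chromosomes 5 and 11 hold most of these genes (mm10). On chromosome 5, Cxcl5 (chr5:90759299-90761625), Cxcl1 (chr5:90891241-90893115) and Cxcl2 (chr5:90903899-90905909) lie on the plus strand, with 10.8 kb between Cxcl1 and Cxcl2, and Cxcl10 (chr5:92346638-92348889, minus strand) lies farther along the chromosome between Cxcl9 and Cxcl11. On chromosome 11, Ccl2 (chr11:82035571-82037453), Ccl7 (chr11:82045712-82047525) and Ccl8 (chr11:82115185-82116799) lie on the plus strand, with 8.3 kb between Ccl2 and Ccl7, and Ccl5 (chr11:83525778-83530518) lies on the minus strand. Cxcl12 (chr6:117168535-117181367) and Cx3cl1 (chr8:94772009-94782423) stand apart from these clusters, both on the plus strand. All 10 are annotated as protein-coding in GENCODE M21.

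The promoters of the CXC ligands whose mRNA rose at 500 mOsm (Cxcl1, Cxcl2 and Cxcl10) and that of Cx3cl1, whose mRNA fell, are shown because they are the members that moved most and had a RefSeq entry (GRCm38.p6, which has the coordinates of mm10). Entries were found for 6 of the 10 members, and Cxcl5, Ccl2, Ccl5 and Ccl7 had none. Each sequence runs in the direction of transcription from 250 bases before to 50 bases after the RefSeq start, at chr5:90890995-90891294 (plus) for Cxcl1, chr5:90903649-90903948 (plus) for Cxcl2, chr5:92348840-92349139 (minus) for Cxcl10 and chr8:94771930-94772229 (plus) for Cx3cl1. Capitals mark matches, on either strand, to any of 6 motifs: an NF-kB-type form of GGG, any 2 bases and TTTCC, a second NF-kB-type form of GGG, any 2 bases and TTCCC, the NFAT5-type core TGGAAA, the AP-1-type TGANTCA, an interferon-response-type form of GAAA, any 2 bases and GAAA, and the TATA box TATAAA.
Cxcl1: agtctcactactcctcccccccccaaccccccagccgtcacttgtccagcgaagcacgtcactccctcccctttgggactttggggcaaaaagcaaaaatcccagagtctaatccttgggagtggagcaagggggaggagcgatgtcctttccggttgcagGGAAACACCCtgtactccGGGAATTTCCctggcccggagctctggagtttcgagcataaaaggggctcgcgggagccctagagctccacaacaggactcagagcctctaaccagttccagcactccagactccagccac
Cxcl2: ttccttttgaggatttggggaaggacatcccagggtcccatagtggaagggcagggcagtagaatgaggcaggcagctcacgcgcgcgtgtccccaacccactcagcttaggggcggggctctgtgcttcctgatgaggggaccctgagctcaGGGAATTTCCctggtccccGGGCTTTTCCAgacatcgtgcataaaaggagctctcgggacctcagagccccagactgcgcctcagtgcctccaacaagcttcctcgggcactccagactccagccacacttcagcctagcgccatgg
Cxcl10: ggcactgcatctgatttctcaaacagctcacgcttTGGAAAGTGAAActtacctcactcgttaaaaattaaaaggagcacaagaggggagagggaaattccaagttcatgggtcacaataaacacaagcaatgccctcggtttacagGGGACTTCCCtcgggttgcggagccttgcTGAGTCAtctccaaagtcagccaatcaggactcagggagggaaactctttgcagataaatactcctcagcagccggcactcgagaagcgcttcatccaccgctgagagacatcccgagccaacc
Cx3cl1: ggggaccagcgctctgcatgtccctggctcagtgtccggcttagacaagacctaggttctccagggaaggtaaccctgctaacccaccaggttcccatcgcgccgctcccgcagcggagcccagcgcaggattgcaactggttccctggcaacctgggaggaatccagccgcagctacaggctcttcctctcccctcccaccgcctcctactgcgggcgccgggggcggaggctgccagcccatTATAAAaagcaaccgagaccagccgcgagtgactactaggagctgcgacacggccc

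The Cxcl1 promoter held GGGTGTTTCC on the minus strand at -89 and GGGAATTTCC at -71, counted from the RefSeq start to the first base of the match. In the Cxcl2 promoter, GGGAATTTCC lay at -97 and GGGCTTTTCC at -78, the latter overlapping a TGGAAA on the minus strand at -73. The Cxcl10 promoter held an NF-kB-type GGGACTTCCC at -103, the AP-1-type TGAGTCA at -74 and the interferon-type GAAAGTGAAA at -213, which overlaps a TGGAAA at -215. In the Cx3cl1 promoter the search found TATAAA at -6 and no match to the other motifs. The RefSeq start there lies inside the gene, downstream of the gene start at 94772009. Its window, from 94771930, thus holds fewer bases before the gene start than the other windows shown. Of the members not shown, Ccl8 had a TATAAA at -32 and Cxcl12 had no match in this window. Among 32851 mouse promoters of the same length, the first NF-kB-type form occurred in 1.63%, the second in 1.75%, TGANTCA in 7.81%, the interferon-type form in 3.44%, TATAAA in 13.6% and TGGAAA in 21.4%. These matches describe the letters in the window and are not measurements of binding.

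In iso-osmolar MEFs, Cxcl12 carried 52.3% of the summed FPKM of the 10 chemokines, followed by Cx3cl1 with 26.6% and Cxcl1 with 10.2%. Ccl5 (4.73%), Ccl2 (3.42%), Ccl7 (1.8%) and Cxcl10 (0.94%) came next, and the ranges of Ccl8, Cxcl2 and Cxcl5 overlapped at or near 0. At 500 mOsm the order became Cxcl12 (43%), Cxcl1 (26.8%), Ccl2 (12.2%) and Cx3cl1 (9.06%), and the ranges of Ccl5 and Ccl7 overlapped. At 600 mOsm Cxcl12 held 69.3%, Cx3cl1 12.7% and Ccl5 6.45%, ahead of Cxcl1 with 4.71%. The summed level was 257.9 ± 5.35 FPKM (SD, n = 3) in iso-osmolar cells, 284.8 ± 26.7 at 500 mOsm and 217.2 ± 9.18 at 600 mOsm. The lowest 500 mOsm library, at 260.1 FPKM, lay below the highest iso-osmolar library, at 262.9, so these sums overlapped, whereas all 600 mOsm sums, at most 224.2, were lower than both.

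**Figure D1:**
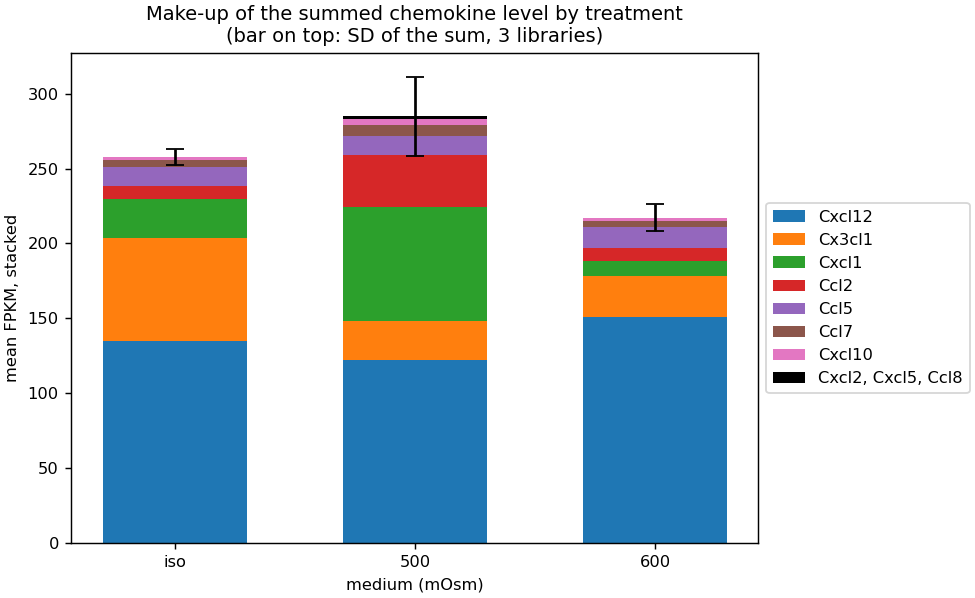
Stacked bars show the mean FPKM of the 10 chemokines in the iso-osmolar, 500 mOsm and 600 mOsm groups (n = 3 libraries each). Cxcl2, Cxcl5 and Ccl8 are pooled in a shared segment, and the SD of the sum is on top. Cxcl12 is the largest segment in each group, and the Cxcl1 and Ccl2 segments are widest at 500 mOsm, where they make up 26.8% and 12.2%.

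At low intensity, the tested members split in both directions: Cxcl1, Cxcl2, Cxcl10, Ccl2 and Ccl7 rose against iso-osmolar cells, Cx3cl1 and Cxcl12 fell, and Ccl5 did not pass the test. Of the 8 members with enough counts to be tested, 5 were higher and 2 lower in edgeR's quasi-likelihood test (Benjamini-Hochberg adjusted over 13082 genes, threshold 0.05), in which 28% of all genes tested passed, 13.2% higher and 14.8% lower. Cxcl2 entered the test only through its 500 mOsm libraries, and without it 4 of 7 were higher and 2 lower. Of 18 alternative fits, the fall of Cxcl12 (log2 change -0.14) passed in 6 and the rise of Ccl7 (0.72) in 15. At high intensity, 1 of the 8 was higher than in iso-osmolar cells (Cxcl12) and 2 were lower (Cxcl1 and Cx3cl1), against 15.1% and 20% of all genes tested (35.1% in either direction). Between the 2 intensities, 5 of 8 were lower at 600 than at 500 mOsm (4 of 7 without Cxcl2) and 1 was higher (Cxcl12), against 17.2% lower and 11.9% higher over all genes (29.1% in either direction). The libraries of the groups did not overlap in CPM (counts scaled to library size) for 7 of the 8 at 500 mOsm against iso-osmolar cells (40.9% of all genes tested), for 5 at 600 mOsm against iso-osmolar cells (48.4%) and for 7 at 600 against 500 mOsm (41.5%). Each of these counts includes Cxcl2, whose separation at 500 mOsm follows in part from the filter. At 600 mOsm against iso-osmolar cells its separation rests on 2, 2 and 4 counts against 0, 2 and 1. The median log2 fold change over all genes was 0.01 in each comparison.

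**Figure D2:**
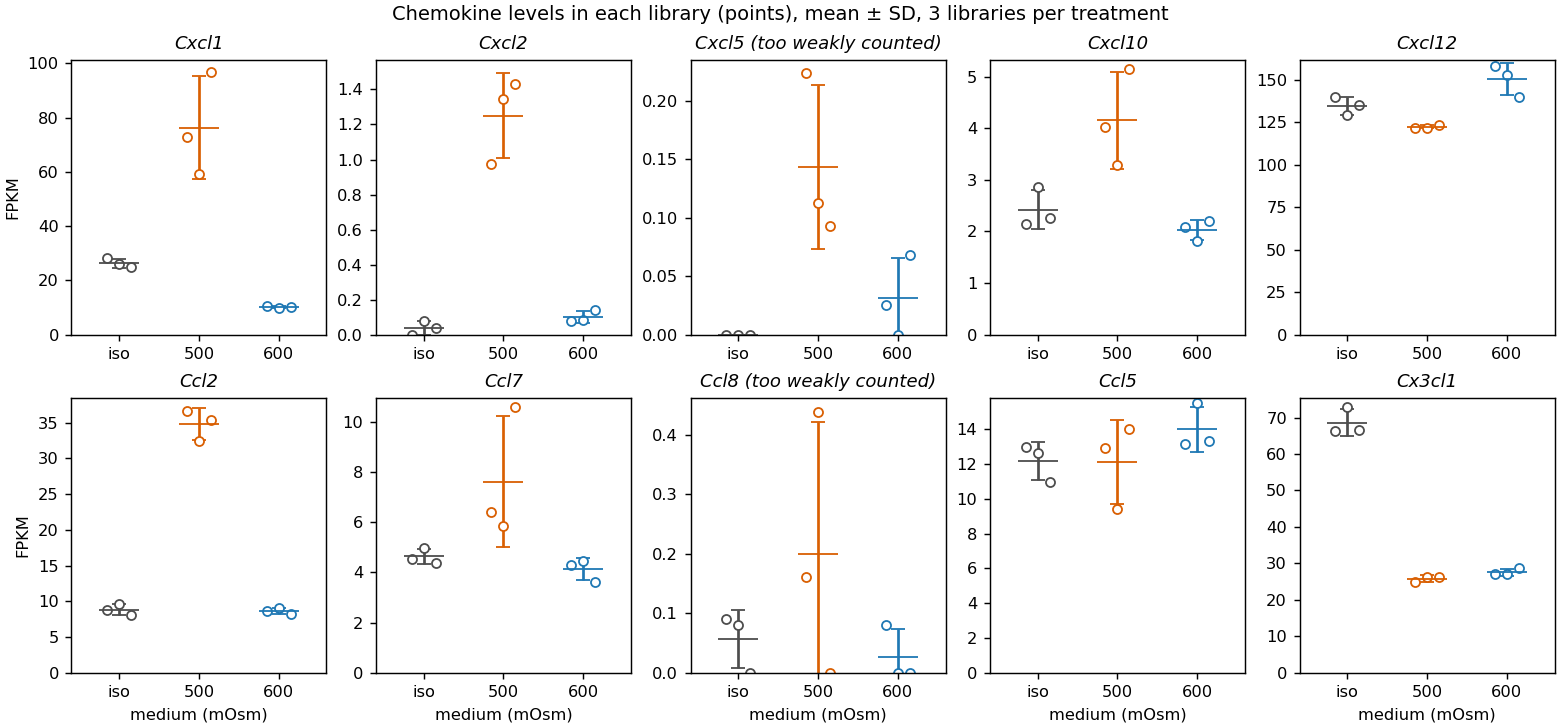
Each panel plots FPKM of 1 chemokine in the 3 iso-osmolar, 3 low-intensity and 3 high-intensity libraries as points, with the group mean and SD as a line and bar. Cxcl1, Cxcl2, Cxcl10, Ccl2 and Ccl7 peak at 500 mOsm, Cx3cl1 is low at both intensities, and Cxcl5 and Ccl8 lie near 0 throughout.

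Cxcl1, Cxcl2 and Cxcl5 attract neutrophils through the receptor Cxcr2. Cxcl1 stood at 28.2, 25.9 and 25.0 FPKM in iso-osmolar libraries, 73.0, 59.2 and 96.8 at 500 mOsm and 10.7, 9.68 and 10.4 at 600 mOsm. The 3 groups did not overlap, and the gene moved in opposite directions at the 2 intensities. The log2 fold change against iso-osmolar cells was 1.54 ± 0.137 (SE) at 500 mOsm, adjusted p = 2.86e-06, and -1.34 ± 0.152 at 600 mOsm, adjusted p = 2.7e-05. Between the intensities Cxcl1 was 7.34-fold lower at 600 mOsm, a log2 change of -2.88 ± 0.149 (adjusted p = 2.9e-08). Of the members, it alone passed the test in all 3 comparisons with a fall at 600 mOsm and a rise at 500 mOsm.

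Cxcl2 was nearly silent outside low-intensity stress, with 0, 2 and 1 counts in iso-osmolar libraries, 25, 38 and 39 at 500 mOsm and 2, 2 and 4 at 600 mOsm. In FPKM these were 0.0388 ± 0.0386 (SD, n = 3), 1.25 ± 0.242 and 0.102 ± 0.0352, and the 500 mOsm libraries were far above all others. The ratio of depth-scaled counts was 31.2 at 500 mOsm over iso-osmolar cells, with a 95% Poisson interval of 10.4 to 153.9 that covers counting error only, and 11.9 (5.82 to 28.3) over 600 mOsm. The fitted log2 changes were 4.80 ± 0.494 at 500 mOsm against iso-osmolar cells (adjusted p = 1.02e-05) and -3.51 ± 0.409 at 600 against 500 mOsm (adjusted p = 3.81e-05). Cxcl2 entered the test only through its 500 mOsm libraries, where it is high, so these calls follow in part from the filter. At 600 mOsm against iso-osmolar cells the change was 1.29 with a 95% interval of -0.50 to 3.08 (adjusted p = 0.248), so a change of either sign was not resolved at this depth. On the log2(FPKM + 1) scale, which compresses low values, the first 2 changes were 1.11 and -1.02. Without iso-osmolar replicate 2, which holds 2 of the 3 iso-osmolar counts, the change was 5.64 at 500 mOsm and 2.12 at 600 mOsm (adjusted p = 5.54e-05 and 0.152). The Cxcl2 transcript shares 561 bases at 90% identity with that of Cxcl3, another Cxcr2 ligand, which had 0 to 1, 3 to 9 and 1 to 4 counts per library in the 3 groups.

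Cxcl5 was too weakly counted to be tested, with 0 counts in every iso-osmolar library, 9, 5 and 4 at 500 mOsm and 1, 0 and 3 at 600 mOsm. At 500 mOsm it was at least 5.51-fold higher when the iso-osmolar group is set to a floor of 3 counts over the group, and with the counting error of both groups the 95% Poisson lower limit of this ratio was 4.04. Its summed counts at 500 mOsm were 4.21 times those at 600 mOsm (95% Poisson interval 1.39 to 17.1). With no count filter its adjusted p at 500 mOsm against iso-osmolar cells was 0.00179 over 23419 genes. That fit moved the adjusted p of Cxcl1 from 2.86e-06 to 3.58e-68 at nearly the same log2 change (1.54 and 1.52). Its p-values are therefore not comparable with those of the filtered fit, and this value is not taken as a call. Other silent genes gained counts as well: of 8817 protein-coding genes with at most 3 summed counts in iso-osmolar libraries, 859 (9.74%) reached at least 10 summed counts at 500 mOsm and 320 (3.63%) at 600 mOsm, and 39 (0.442%) reached at least 100 at 500 mOsm. Cxcl5, with 18 summed counts at 500 mOsm, belongs to the first set and Cxcl2, with 102, to the last.

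Cxcl10, an interferon-inducible ligand of Cxcr3 on activated T cells, rose at low intensity. Its levels were 2.15, 2.86 and 2.27 FPKM in iso-osmolar libraries, 4.02, 3.28 and 5.15 at 500 mOsm and 2.08, 1.82 and 2.20 at 600 mOsm. Every 500 mOsm library was above every other library, whereas the iso-osmolar and 600 mOsm libraries overlapped. The log2 fold change was 0.77 ± 0.185 at 500 mOsm (adjusted p = 0.00703) and -0.23 at 600 mOsm, with a 95% interval of -0.67 to 0.21 (adjusted p = 0.406). Between the intensities it was -1.002 ± 0.189 (adjusted p = 0.00157). The gene lies wholly inside Art3 on the opposite strand, and Art3 had 0 to 2 counts in every library.

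Cxcl12, the homing ligand of Cxcr4 and Ackr3, had the highest level per transcript length among the members and the smallest changes of those that passed. It was at 139.9, 129.5 and 135.0 FPKM in iso-osmolar libraries, 122.0, 121.8 and 123.3 at 500 mOsm and 158.2, 153.1 and 140.2 at 600 mOsm. The groups did not overlap, though the lowest 600 mOsm library lay only just above the highest iso-osmolar one. Against iso-osmolar cells the log2 change was -0.14 ± 0.0459 at 500 mOsm (adjusted p = 0.0428) and 0.18 ± 0.0459 at 600 mOsm (adjusted p = 0.00955). The difference between intensities was 0.31 ± 0.0459 (adjusted p = 0.000238), or 1.24-fold. The fall at 500 mOsm passed in only 6 of 18 alternatives, and the rise at 600 mOsm did not pass without 600 mOsm replicate 1 (log2 change 0.14, adjusted p = 0.0533).

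Cx3cl1 (fractalkine) is made as a membrane-anchored adhesion molecule for cells bearing Cx3cr1 and is released by the proteases Adam10 and Adam17. It had 66.2, 72.9 and 66.6 FPKM in iso-osmolar libraries, 24.8, 26.3 and 26.3 at 500 mOsm and 26.95, 27.02 and 28.7 at 600 mOsm. Stressed libraries were all less than the lowest iso-osmolar one, and of the members it was the only one to fall at both intensities. The fall was 2.65-fold at 500 mOsm (log2 change -1.41 ± 0.0602, adjusted p = 4.62e-09) and 2.45-fold at 600 mOsm (-1.30 ± 0.0601, adjusted p = 1.42e-08). Between the intensities the change was 0.11 with a 95% interval of -0.02 to 0.24 (adjusted p = 0.185).

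Ccl2, Ccl7 and Ccl8 belong to the monocyte chemoattractant group, and Ccl2 is the main ligand of Ccr2. Ccl2 was at 8.82, 9.61 and 8.07 FPKM in iso-osmolar libraries, 36.7, 32.4 and 35.3 at 500 mOsm and 8.58, 8.995 and 8.17 at 600 mOsm. The 500 mOsm libraries stood clear of the rest, and the iso-osmolar and 600 mOsm libraries overlapped. The rise at 500 mOsm was 3.94-fold (log2 change 1.98 ± 0.0871, adjusted p = 5.76e-09), and 600 mOsm was 4.01-fold lower than 500 mOsm (-2.003 ± 0.0871, adjusted p = 5.86e-09). At 600 mOsm against iso-osmolar cells the change was -0.02 with a 95% interval of -0.23 to 0.18 (adjusted p = 0.866). The gene lies within Gm17268 on the opposite strand, which had 0 to 2 counts in every library.

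Ccl7, which lies beside Ccl2 and binds several CC receptors, was less even between libraries. It was at 4.54, 4.97 and 4.38 FPKM in iso-osmolar libraries, 6.42, 5.84 and 10.6 at 500 mOsm and 4.30, 4.46 and 3.62 at 600 mOsm. All 500 mOsm libraries were above all others, with replicate 3 far above its group. The log2 change was 0.72 ± 0.200 at 500 mOsm (adjusted p = 0.0170), and without 500 mOsm replicate 3 it was 0.41 (adjusted p = 0.0563). The call was also lost without iso-osmolar replicate 1 (0.70, adjusted p = 0.0508) or iso-osmolar replicate 3 (0.67, adjusted p = 0.0553). At 600 mOsm Ccl7 was lower than at 500 mOsm by a log2 change of -0.87 ± 0.203 (adjusted p = 0.00619), and against iso-osmolar cells the change was -0.15, 95% interval -0.62 to 0.31 (adjusted p = 0.617).

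Ccl8 was too weakly counted to be tested, with 1, 1 and 0 counts in iso-osmolar libraries, 2, 6 and 0 at 500 mOsm and 1, 0 and 0 at 600 mOsm. The ratio of its summed counts at 500 mOsm to iso-osmolar cells was 3.67, with a 95% Poisson interval of 0.733 to 35.5, so a difference between these groups was not detectable at this depth. Over 600 mOsm the ratio was 7.48, with an interval of 1.002 to 331.7 that barely leaves out 1, covers counting error only and rests on 8 counts against 1. The libraries of these groups overlapped at 0 counts.

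Ccl5 (RANTES), which attracts T cells and monocytes, did not pass the test in any comparison. It was at 12.96, 12.7 and 10.95 FPKM in iso-osmolar libraries, 12.9, 9.41 and 14.0 at 500 mOsm and 13.2, 15.5 and 13.4 at 600 mOsm. The 500 mOsm libraries spanned the iso-osmolar ones, and the 600 mOsm libraries were all slightly above them. The log2 change was -0.0067 at 500 mOsm, 95% interval -0.31 to 0.30 (adjusted p = 0.979), and 0.22 at 600 mOsm, -0.08 to 0.52 (adjusted p = 0.249).

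**Figure D3:**
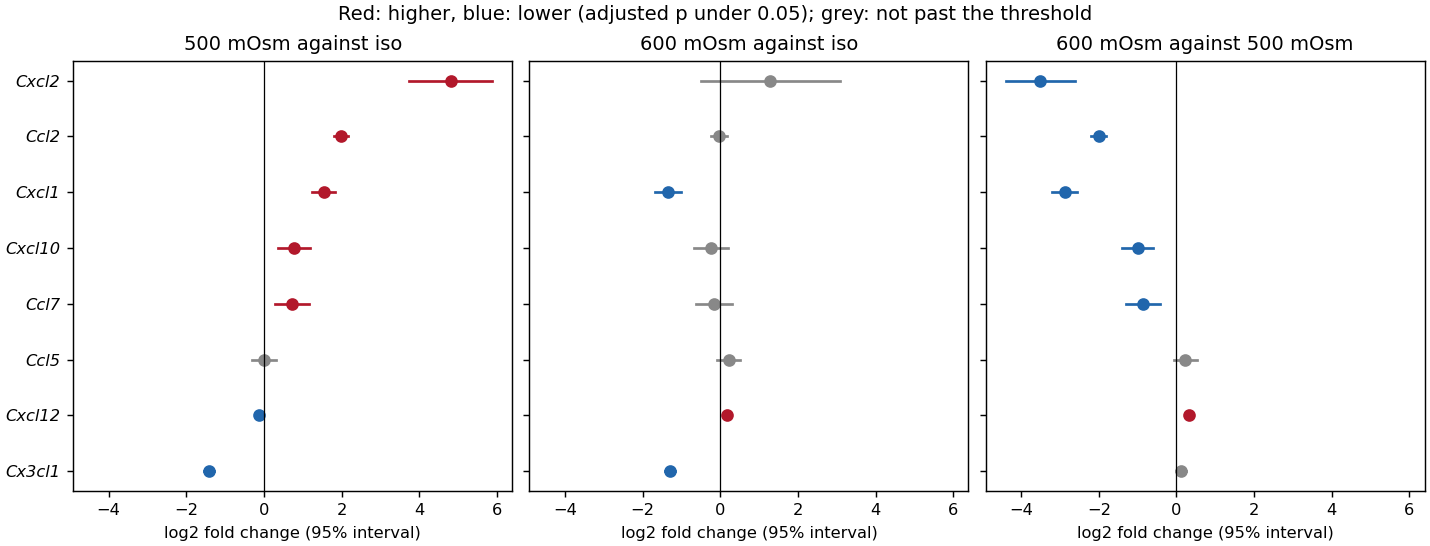
Points give the log2 fold change of each of the 8 tested chemokines in the 3 comparisons, with 95% intervals from the edgeR fit. Ccl2 and Cxcl1 lie at 1.98 and 1.54 at 500 mOsm against iso-osmolar cells and at -2.003 and -2.88 at 600 against 500 mOsm, whereas Cx3cl1 lies near -1.41 and -1.30 at the 2 intensities.

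The spread within the 500 mOsm group was itself uneven between members. The coefficient of variation of FPKM there was 34.1% for Ccl7, 24.9% for Cxcl1, 22.7% for Cxcl10 and about 20% for Ccl5, but 6.3% for Ccl2, 3.4% for Cx3cl1 and 0.666% for Cxcl12. For Ccl7, Cxcl1, Cxcl10 and Ccl5, and also for Cxcl12, replicate 3 was the highest and replicate 2 the lowest of the 3 libraries. Cxcl2 and Cx3cl1 were highest in replicate 3 and lowest in replicate 1, and Ccl2 was highest in replicate 1. In iso-osmolar cells Cxcl1 and Ccl7 varied by 6.22% and 6.59%.

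Neighbours in the same cluster did not share one pattern. Between Cxcl5 and Cxcl1, Ppbp, the precursor of platelet basic protein, was at 34.8 ± 3.49 FPKM (SD, n = 3) in iso-osmolar cells, 34.0 ± 1.99 at 500 mOsm and 39.9 ± 0.696 at 600 mOsm, a level per length above that of Cxcl1 in iso-osmolar cells. It did not pass at 500 mOsm (log2 change -0.03, adjusted p = 0.820), where Cxcl1 and Cxcl2 rose, and was higher at 600 mOsm by 0.22 (adjusted p = 0.0354). Pf4, next to Ppbp, had at most 5 counts in any library. On chromosome 11, Ccl12, which lies between Ccl2 and Ccl8, had 0 counts in every library.

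**Figure D4:**
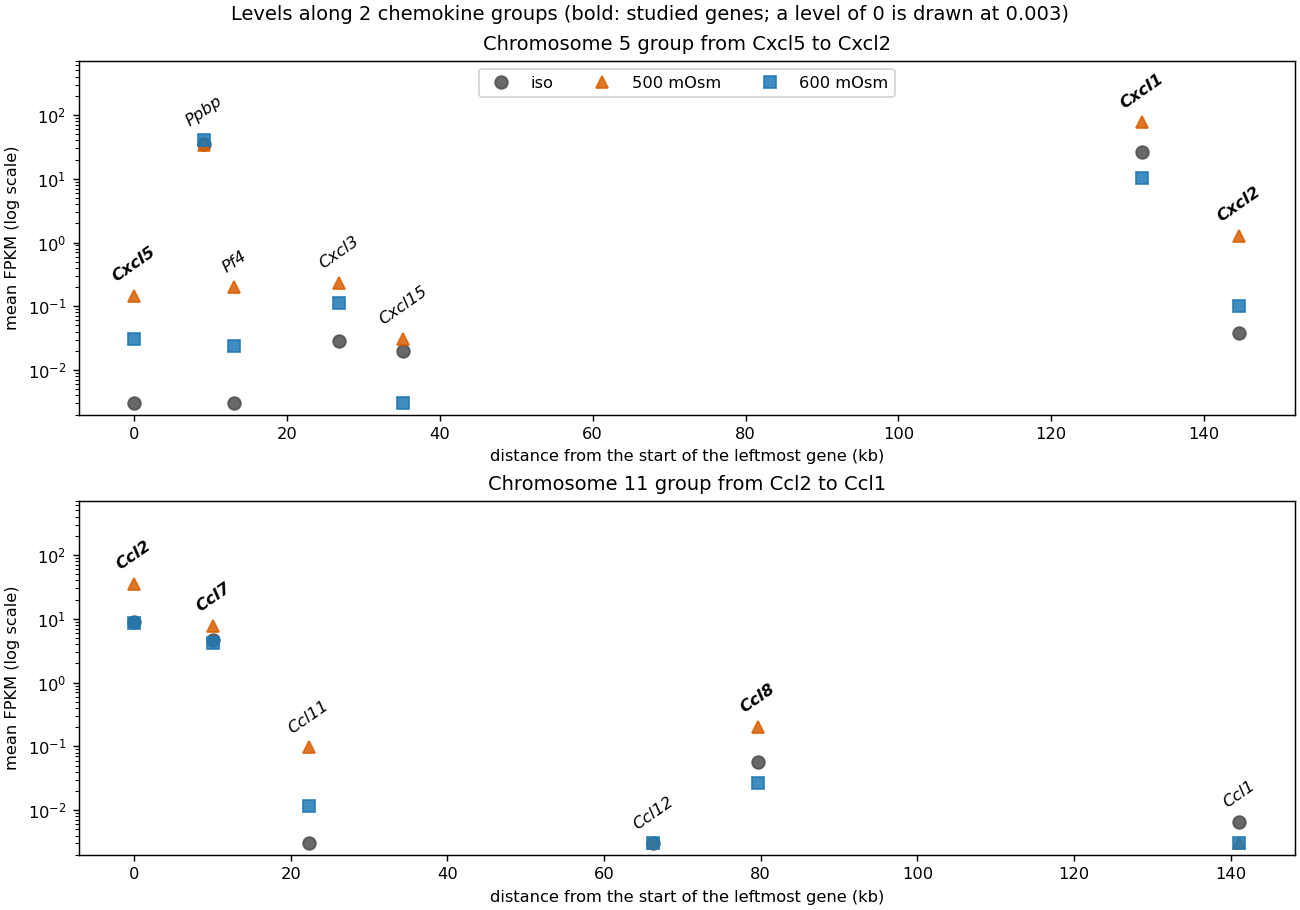
Mean FPKM of each group (log axis, values of 0 drawn at the lowest position) is plotted against distance in kb along the Cxcl5 to Cxcl2 and the Ccl2 to Ccl1 clusters. Ppbp, at 34.8 FPKM in iso-osmolar cells, stands between weakly counted neighbours, and Ccl2 and Ccl7 are the highest genes of the chromosome 11 cluster.

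Of 28 other chemokine ligands in the mouse list, 5 had enough counts to be tested. Ccl17 was lower at 500 mOsm (log2 change -0.50 ± 0.169, adjusted p = 0.0431) and Ppbp was higher at 600 mOsm, and both were higher at 600 than at 500 mOsm (0.52 and 0.25, adjusted p = 0.0353 and 0.0230). The other 3 tested, Ccl9, Ccl25 and Ccl27a, did not pass in any comparison. Over all genes tested, 13.2% were higher and 14.8% lower at 500 mOsm, and 15.1% and 20% at 600 mOsm. Between the intensities these shares were 11.9% and 17.2%. The counts rest on only 5 genes and were not tested against these shares. The median log2 change of the 5 was -0.03 at 500 mOsm and 0.02 at 600 mOsm.

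Of 23 chemokine receptors, 3 had enough counts to be tested, namely Ackr3, Cxcr4 and Ccr10. Ackr3, which takes up and clears Cxcl12, fell from 7.69 ± 0.885 FPKM (SD, n = 3) in iso-osmolar cells to 3.42 ± 0.148 at 500 mOsm and 3.19 ± 0.231 at 600 mOsm. The log2 changes were -1.17 ± 0.0979 (adjusted p = 1.72e-06) and -1.25 ± 0.0989 (adjusted p = 1.22e-06), and -0.08 between the intensities (adjusted p = 0.595). Cxcr4, the signalling receptor of Cxcl12, had 1 to 2 counts in iso-osmolar libraries, 1 to 12 at 500 mOsm and 8 to 13 at 600 mOsm, and passed at 600 mOsm against iso-osmolar cells (2.96 ± 0.743, adjusted p = 0.00839). It entered the test only through its stressed libraries, where it is high, so this call follows in part from the filter. The receptors of the ligands that moved most were hardly counted: Cxcr2 had at most 2 counts in any library, Ccr2 at most 4 and Cx3cr1 at most 6.

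Of the 22 transcription factors tested that are known to act at chemokine genes, low-intensity stress raised 6 and lowered 9, and high-intensity stress raised 2 (Irf1 and Atf3) and lowered 7. All genes tested gave 13.2% higher and 14.8% lower at low intensity and 15.1% and 20% at high intensity. Against 500 mOsm, the 600 mOsm cells had 4 at a higher and 8 at a lower level, where all genes gave 11.9% and 17.2%. The 4 that were higher at 600 than at 500 mOsm were Irf1, Irf3, Stat2 and Cebpd. The median log2 changes of the 22 were -0.11, -0.14 and -0.17, beside 0.01 over all genes. Fos, an AP-1 subunit, rose from 1.35 ± 0.122 FPKM (SD, n = 3) to 19.0 ± 1.29 at 500 mOsm and was at 1.19 ± 0.121 at 600 mOsm, with log2 changes of 3.81 (adjusted p = 6.07e-11) and -0.17 (adjusted p = 0.381). Junb, another AP-1 subunit, rose by 1.41 at 500 mOsm (adjusted p = 9.34e-09) and fell by 0.35 at 600 mOsm (adjusted p = 0.00112). Other AP-1 subunits, added after their values had been seen, did not all follow: Jun rose by 0.75 at 500 mOsm (adjusted p = 3.52e-06) and was at -0.11 at 600 mOsm (adjusted p = 0.231), whereas Fosl1, at 151.4 FPKM in iso-osmolar cells far above Fos, fell at both (-0.76 and -1.10, adjusted p = 1.01e-06 and 5.92e-08). Atf3, a stress-induced factor of the same superfamily, was higher at both (3.04 and 0.62, adjusted p = 2.25e-08 and 0.0158). Irf1, an activator of interferon-responsive genes such as Cxcl10, went the other way, with -0.92 at 500 mOsm (adjusted p = 1.46e-07) and 0.41 at 600 mOsm (adjusted p = 0.000115). These values are mRNA levels and do not measure activity.

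The NF-kB subunits and Nfat5, the osmotic stress factor, were singled out after their values had been seen. Rela did not pass at either intensity (log2 changes 0.03 and -0.07, adjusted p = 0.696 and 0.342), nor did Rel (-0.14 and -0.38, adjusted p = 0.557 and 0.0717). Nfkb1 was lower at both (-0.27 and -0.76, adjusted p = 0.00196 and 4.51e-07), as was Relb (-0.37 and -0.31, adjusted p = 0.00357 and 0.00954), and Nfkb2 did not pass (0.01 and 0.02, adjusted p = 0.942 and 0.874). Nfat5 was at 0.31 at 500 mOsm (adjusted p = 0.140) and lower by -0.90 at 600 mOsm (adjusted p = 0.000609).

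Among 10 tested factors of mRNA decay, 2 rose (Zfp36 and Zc3h12a) and 2 fell (Zfp36l2 and Khsrp) at low intensity. At high intensity 5 fell (Zfp36l1, Zfp36l2, Zc3h12a, Zc3h12c and Hnrnpd), and 5 were lower than at low intensity (Zfp36, Zfp36l1, Zfp36l2, Zc3h12a and Hnrnpd). The counts at low intensity lie near the shares of all genes tested (13.2% higher and 14.8% lower), and at high intensity 20% of all genes were lower, or 17.2% against low intensity. The median log2 changes of the 10 were -0.05, -0.36 and, between the intensities, -0.51. Zfp36 (tristetraprolin), which directs decay of AU-rich mRNAs, rose from 4.91 ± 0.615 FPKM (SD, n = 3) to 16.5 ± 1.01 at 500 mOsm and was at 4.14 ± 0.347 at 600 mOsm. Its log2 changes were 1.75 ± 0.0988 (adjusted p = 5.58e-08) and -0.23 ± 0.107 (adjusted p = 0.111), so its mRNA was high in the same libraries as Cxcl1 and Ccl2. Its relatives differed from it: Zfp36l1 changed by 0.42 (adjusted p = 0.0784) and -1.18 (adjusted p = 0.000262), and Zfp36l2 by -0.42 (adjusted p = 0.0061) and -1.73 (adjusted p = 1.05e-07). Zc3h12a (Regnase-1), an endonuclease for inflammatory mRNAs, was higher at 500 mOsm (0.68, adjusted p = 0.00113) and lower at 600 mOsm (-0.48, adjusted p = 0.0146).

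**Figure D5:**
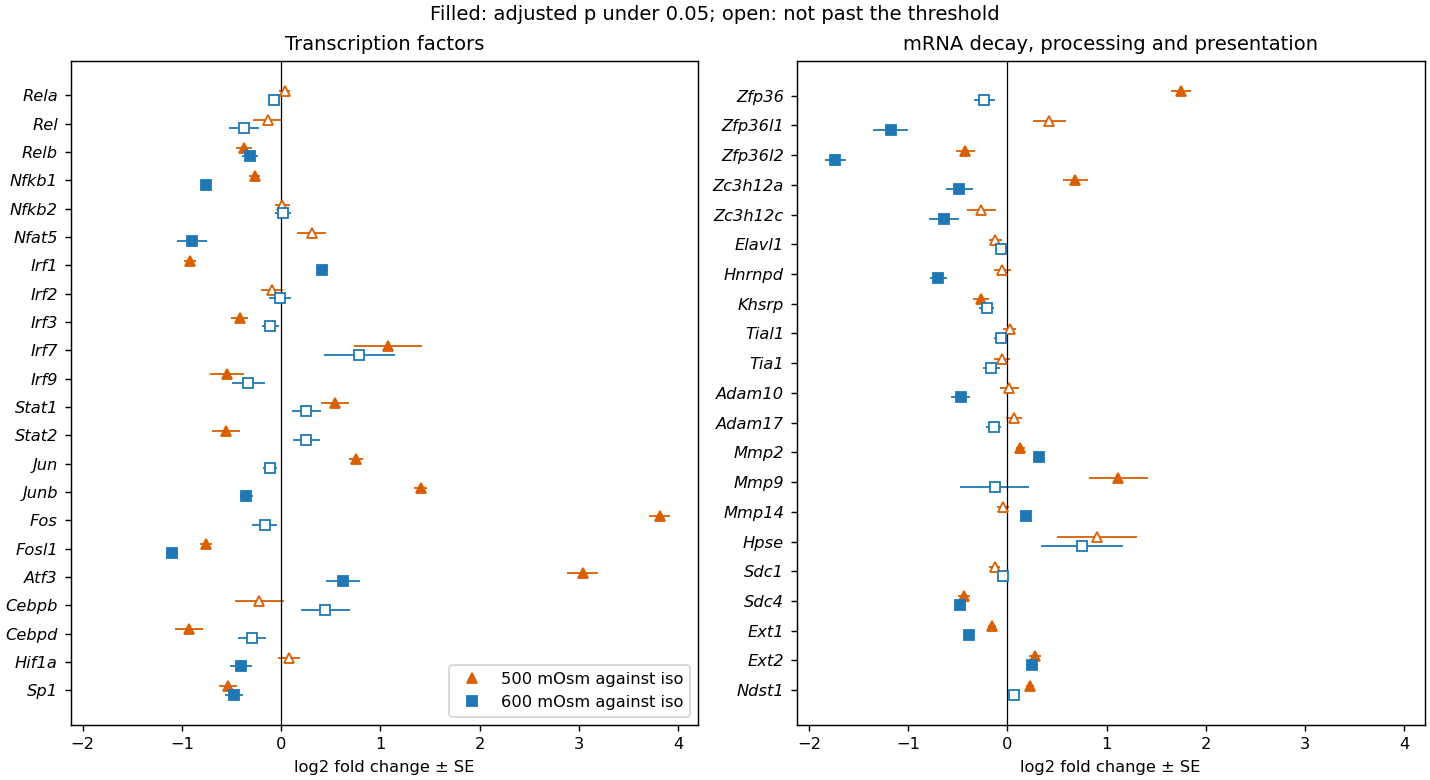
Points give log2 fold changes of listed transcription factors and of factors of mRNA decay, processing and presentation at 500 and 600 mOsm against iso-osmolar cells. Fos and Zfp36 lie at 3.81 and 1.75 at 500 mOsm and at -0.17 and -0.23 at 600 mOsm, and bars are SE.

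Of 11 tested genes that process or hold chemokines, 4 rose (Mmp2, Mmp9, Ext2 and Ndst1) and 2 fell (Sdc4 and Ext1) at low intensity, and 3 rose (Mmp2, Mmp14 and Ext2) and 3 fell (Adam10, Sdc4 and Ext1) at high intensity. Against 500 mOsm, the 600 mOsm cells had more Mmp2 and Mmp14 and less Adam10, Mmp9, Ext1 and Ndst1 mRNA. Beside these stand 13.2% higher and 14.8% lower over all genes at low intensity and 15.1% and 20% at high intensity. Between the intensities the shares were 11.9% higher and 17.2% lower. The counts rest on only 11 genes and were not tested against these shares. Adam10, a sheddase of Cx3cl1, was at 0.02 at 500 mOsm (adjusted p = 0.900) and lower at 600 mOsm (-0.47 ± 0.0983, adjusted p = 0.00276), and Adam17 did not pass in either (0.07 and -0.14, adjusted p = 0.597 and 0.199). Sdc4 and Ext1, which carry and build the heparan sulphate that binds chemokines, were lower at both intensities (-0.44 and -0.48 for Sdc4, -0.15 and -0.39 for Ext1). Related genes of the list did not follow: Ext2 was higher at both (0.28 and 0.25), Ndst1 was higher at 500 mOsm (0.23) and Sdc1 did not pass at either. Mmp2, a protease that trims Cxcl12, was higher at both (0.13 and 0.32, adjusted p = 0.0477 and 0.000195).

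The genes whose log2 CPM followed each member most closely over the 9 libraries are given as a description, because the libraries share their 3 groups. Fos (Pearson r = 0.998) and Bpifb6 (0.997) were closest to Ccl2, and Cyr61 and Runx1 (both 0.992) to Cxcl1. For Cxcl2 they were Lag3 (0.993) and Gm26698 (0.990), and for Cxcl10 Gm11517 (0.976) and Farp1 (0.963). Polm (0.998) and Fmnl3 (0.996) were closest to Cx3cl1, Flna (0.970) and Snrnp200 (0.966) to Cxcl12, Herpud1 (0.958) and Map1lc3b (0.953) to Ccl7, and Chil1 (0.963) and Lpl (0.937) to Ccl5.

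Because leukocytes and endothelial cells also make these chemokines, their markers were measured beside them. Summed FPKM of the 8 macrophage markers was 20.7 to 24.1 in iso-osmolar libraries, 15.9 to 26.9 at 500 mOsm and 20.6 to 28.8 at 600 mOsm, so the sums overlapped, and 4 of the 8 were under 1 FPKM in every library. Most of this sum came from Cd14, which was lower at 500 mOsm (log2 change -0.98), and Lyz2, which did not pass. Of the 6 tested, 3 were higher and 1 lower (Cd14) at 500 mOsm, against 13.2% and 14.8% of all genes tested. The 3 were Itgam (5.28, with 0 to 2 counts per iso-osmolar library), Fcgr1 (2.86) and Csf1r (0.38). At 600 mOsm 1 was higher (Fcgr1, 4.56) and 1 lower (Cd14, -0.29), against 15.1% and 20%. Itgam entered the test only through its 500 mOsm libraries and Fcgr1 only through its stressed libraries, so their calls follow in part from the filter. The defining marker Ptprc had 0 to 1, 3 to 7 and 0 to 1 counts per library in the 3 groups, and Adgre1 had at most 1 in any. The 6 endothelial markers summed to 0.202 to 0.258 FPKM in iso-osmolar libraries, 3.38 to 3.84 at 500 mOsm and 0.729 to 1.03 at 600 mOsm, and Pecam1 made up most of the sum at 500 mOsm (3.25 FPKM). In iso-osmolar cells Pecam1 was at 0.0816 FPKM, below Cdh5 at 0.140, and at 600 mOsm it was at 0.484 beside Cdh5 at 0.187 and Cldn5 at 0.155. The 6 epithelial markers summed to 0.883 to 1.09, 1.81 to 2.49 and 0.983 to 1.41 FPKM, and the 6 T cell markers to 0.0189 to 0.0991, 0.636 to 0.781 and 0.367 to 0.637 FPKM, with 2 of the latter at 0 in all libraries. The endothelial and epithelial sums were highest at 500 mOsm and the T cell sums, which overlapped between 500 and 600 mOsm, were above iso-osmolar cells at both. Lck made up most of the T cell sums under stress (0.638 FPKM at 500 mOsm and 0.327 at 600 mOsm, 0.053 in iso-osmolar cells). Cd3e, Cd3d and Cd4 had at most 6 counts in any library, and Cd2 and Cd8a had 0. Tek, another endothelial marker, had 0 to 1, 12 to 13 and 0 to 3 counts per library in the 3 groups, whereas Cdh5 did not pass in any comparison. Of the macrophage markers, Itgam, Csf1r and Ptprc were highest at 500 mOsm. The part of these markers in the rise of the members at 500 mOsm was not tested.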

How the data were processed

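mRNA was selected from total RNA with poly-T beads and sequenced in read pairs. No strand-marking step is described, and whether counting used strand is not given in the sources used here. The submitters' processing notes name CASAVA 1.8 and STAR, reads were aligned to mm10, and the counting tool is not given in the sources used here. The authors deposited 1 table holding, for each gene and library, a raw read count and an FPKM value (depth- and length-scaled). Its group means, fold changes and p-values were not used. Counts were tested in edgeR 4.0.16 (R 4.3.3) with TMM scaling, filterByExpr, 1 group term over all 9 libraries, the quasi-likelihood test and Benjamini-Hochberg adjustment at 0.05. The script was tested on simulated data. Tested alternatives were DESeq2 1.42.0, limma 3.58.1 on log2 FPKM with pseudocounts of 1 or 0.1, other scalings and filters, fits of only the groups compared, a replicate block and leaving out each library. Poisson intervals and floors cover counting error only. Promoters are from RefSeq and transcripts of GENCODE M21 were compared with blastn 2.17.0. All members are named, with, from each list, up to 4 genes of smallest p among those that passed, and, for each tested member, the 2 genes of closest profile. Genes behind a count of 5 or fewer are named for most lists. The members and lists were chosen with earlier results of these data known.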

Additional observations from a re-analysis of the deposited data

How the results depend on the processing

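Over 18 alternatives per comparison, the count of members past the threshold was 5 to 8 at 500 mOsm against iso-osmolar cells, 2 to 3 at 600 mOsm against iso-osmolar cells and 5 to 6 at 600 against 500 mOsm, beside 7, 3 and 6 in the reported fits. The count of 8 came from the fit with no count filter, in which Cxcl5 is included. With replicate number as a block, the counts were 6, 3 and 6. The numbers do not pair the libraries: over 10310 genes, deviations of same-numbered libraries had a mean correlation of -0.201 (-0.544 to 0.459) over 9 pairs, and 2 of the 9 libraries correlated best with their own number. Leaving out 1 library gave 5 to 7 members at 500 mOsm. Of 143 member values recomputed per comparison, 124 kept direction and call at 500 mOsm against iso-osmolar cells, 15 lost the call and 4 turned sign. At 600 mOsm against iso-osmolar cells these numbers were 141, 1 and 1, and at 600 against 500 mOsm all 143 kept both. The sign turns concern values near 0. Ccl5 at 500 mOsm gave 0.0065 with at least 10 counts required in every library, 0.03 without iso-osmolar replicate 1 or 2 and 0.13 without 500 mOsm replicate 2, and ranged from -0.12 to 0.13 over the fits without 1 library. Ccl2 at 600 mOsm gave 0.052 without iso-osmolar replicate 2, in a range of -0.090 to 0.052 over the fits without 1 library. The cause was not tested. Cxcl2 could not be fitted where 10 counts were required in every library. Depth limits Cxcl2, Cxcl5 and Ccl8, for which 3 counts or fewer per library were common.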

Other observations

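A chemokine outside the 10, Ccl22, a ligand of Ccr4, had 1 to 3 counts in iso-osmolar libraries, 8 to 19 at 500 mOsm and 1 to 2 at 600 mOsm. Some markers of other cell types showed counts of the same kind. Cdh1, the epithelial cadherin, had 0 to 1, 86 to 91 and 1 to 4 counts per library in the 3 groups, Itgam, an integrin of myeloid cells, had 0 to 2, 35 to 61 and 3 to 5, and Pecam1, an endothelial adhesion molecule, had 4 to 11, 265 to 314 and 31 to 53. Others on the same marker lists did not follow. Epcam had at most 1 count in any library, and Krt19 had 26 to 33, 30 to 45 and 25 to 46 counts in the 3 groups. Cdh5 had 11 to 14, 12 to 18 and 17 to 19, and Cd14 had 488 to 606, 264 to 348 and 419 to 494. All genes in this paragraph were picked after their values had been seen.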
